A study of Mus musculus with 12 samples.

Results

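Primary (azurophil) granules are the first granules that a neutrophil progenitor builds, at the promyelocyte stage. They hold myeloperoxidase and a family of serine proteases that are made as inactive precursors, activated by the dipeptidyl peptidase cathepsin C and stored bound to proteoglycan. The genes are switched on together by the transcription factors PU.1, C/EBP and RUNX1, and their RNA is largely shut off before the neutrophil matures. The 10 genes described here were listed by symbol, as granule contents and the proteins that process or restrain them. The list was made with earlier results of these data known. Mpo, Elane, Prtn3, Ctsg and Prss57 encode the stored enzymes, Ctsc encodes the activating protease, Cst7 and Serpinb1a encode inhibitors, and Ms4a3 and Nkg7 encode membrane proteins. All 10 were found among the 37583 gene identifiers of the count files, and all 10 passed the filter on low counts that 11819 genes passed.

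RNA was sequenced from 12 single-cell clones of mouse granulocyte-monocyte progenitors derived from C57BL/6 fetal liver at embryonic day 15.5. All 12 carried a retroviral ER-Hoxb8 fusion, which holds progenitors in an immature, dividing state while estradiol is present, and all were grown in 0.5 µM estradiol and medium with stem cell factor, equivalent to about 50 ng/ml. Wild type was represented by 6 clones, 1A to 1C and 2D to 2F. The 6 clones 3G to 3I and 4J to 4L lacked Taz (Tafazzin, which remodels the mitochondrial lipid cardiolipin). All samples came from these growth conditions, so the values describe immortalized progenitors and not neutrophils. What the number in a clone's name stands for is not stated, nor whether clones came from separate embryos. P-values therefore measure the spread between these clones, and they are too small if clones with 1 number share an embryo or a parent line.

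The libraries held 18970252 to 27431544 counts in genes, so that 3 counts, the limit that a count of 0 allows, correspond to 0.109 to 0.158 CPM (counts scaled to library size). Taz fell from 39.2 ± 2.58 CPM (SD, n = 6) in wild-type clones to 3.35 ± 0.685 CPM (SD, n = 6) in knockout clones, in keeping with the labels in every clone. Of the markers that define these progenitors, Kit was at 672 ± 97.9 and 753 ± 78.8 CPM, and Cd34 at 1712 ± 414 and 1808 ± 355 CPM (SD, n = 6 wild-type and n = 6 knockout clones). Fcgr3, the third of them, was at 115 ± 22.8 and 139 ± 26.0 CPM.

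Promoters of 8 of the 10 genes were listed in a RefSeq table of build GRCm38.p6; Prss57 and Serpinb1a were not matched. The 250 bases before the start site are shown for 6 of them, 5′ to 3′ on the strand of the gene, because these genes are in most of the correlated pairs described further on. Capitals mark GAGGAA on either strand, the core of the site that PU.1 recognises (TTCCTC where it lies on the other strand). Elane lies on the plus strand at chr10:79886062-79886311, Prtn3 on the plus strand at chr10:79879417-79879666 and Mpo on the plus strand at chr11:87793534-87793783. Ctsg lies on the minus strand at chr14:56102575-56102824, Ms4a3 on the minus strand at chr19:11640852-11641101 and Ctsc on the plus strand at chr7:88277835-88278084.
Elane: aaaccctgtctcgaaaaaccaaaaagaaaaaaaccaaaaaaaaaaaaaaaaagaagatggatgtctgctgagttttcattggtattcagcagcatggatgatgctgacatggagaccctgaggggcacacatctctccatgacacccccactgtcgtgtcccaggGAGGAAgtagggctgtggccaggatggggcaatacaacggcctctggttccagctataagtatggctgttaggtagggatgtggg
Prtn3: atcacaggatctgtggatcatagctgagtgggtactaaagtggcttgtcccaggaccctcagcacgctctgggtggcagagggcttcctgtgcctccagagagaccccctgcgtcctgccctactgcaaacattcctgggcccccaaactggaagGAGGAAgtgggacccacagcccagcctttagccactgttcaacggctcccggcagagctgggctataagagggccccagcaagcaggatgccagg
Mpo: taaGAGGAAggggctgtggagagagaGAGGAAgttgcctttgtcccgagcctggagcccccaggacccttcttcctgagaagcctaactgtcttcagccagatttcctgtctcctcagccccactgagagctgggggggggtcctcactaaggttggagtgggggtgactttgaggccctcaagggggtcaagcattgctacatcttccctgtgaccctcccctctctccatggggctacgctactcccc
Ctsg: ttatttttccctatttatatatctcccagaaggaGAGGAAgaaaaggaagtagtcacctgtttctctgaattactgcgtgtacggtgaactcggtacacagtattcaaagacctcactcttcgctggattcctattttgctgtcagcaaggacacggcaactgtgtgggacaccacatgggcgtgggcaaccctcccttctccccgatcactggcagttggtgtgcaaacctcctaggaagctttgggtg
Ms4a3: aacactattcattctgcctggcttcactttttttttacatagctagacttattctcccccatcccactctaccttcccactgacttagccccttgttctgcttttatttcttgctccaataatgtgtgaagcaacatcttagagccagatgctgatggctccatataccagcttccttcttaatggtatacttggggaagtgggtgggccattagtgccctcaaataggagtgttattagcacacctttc
Ctsc: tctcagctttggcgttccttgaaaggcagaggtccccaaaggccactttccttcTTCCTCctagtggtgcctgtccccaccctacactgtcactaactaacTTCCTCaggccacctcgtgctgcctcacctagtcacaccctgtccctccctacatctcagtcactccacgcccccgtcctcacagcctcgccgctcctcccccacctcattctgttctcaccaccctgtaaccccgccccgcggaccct

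The core lay 85 bases before the start site in Elane and 95 bases before it in Prtn3, on the gene's own strand in both. In Mpo it occurred 247 and 224 bases before the start, in Ctsg 216 bases before, and in Ctsc 196 and 149 bases before on the other strand. The stretch shown for Ms4a3 holds none. In the full windows, which run from 250 bases before to 50 bases after the start, the core was found in 6 of the 8 promoters and in 28.3% of 32851 mouse promoters of the same length. The other motifs searched, also on both strands, were TTNNGNAA for C/EBP, TGTGGT for RUNX and AACNG for MYB. TTNNGNAA was found in 2 of 8 (40.7% of all promoters), TGTGGT in 3 of 8 (16.8%) and AACNG in 7 of 8 (80.3%). In Ms4a3 a PU.1 core and a C/EBP match, starting 36 and 42 bases after the start site, lie side by side, and no match overlapped one of another motif in these 8 windows. These matches are letters in a window and say nothing of binding, which was not measured.

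Together the 10 genes took between 0.995% (clone 4K) and 2.15% (clone 2D) of all counts, with 1.68% ± 0.354 (SD, n = 6) in wild-type and 1.57% ± 0.404 (SD, n = 6) in knockout clones. Mpo, the heme enzyme that makes hypochlorous acid, alone gave 0.998% ± 0.246 and 0.979% ± 0.307 (SD, n = 6 each). Per kilobase of the longest protein-coding transcript, the mean level over 12 clones was 3602 ± 977 RPKM (SD) for Mpo and 2961 ± 335 RPKM for Ctsg, the chymotrypsin-like cathepsin G. Prtn3 (proteinase 3) followed at 978 ± 578 RPKM, and Ms4a3, a membrane protein that marks granulocyte-monocyte progenitors, at 752 ± 195 RPKM. The inhibitors Serpinb1a and Cst7 were at 387 ± 61.8 and 329 ± 48.3 RPKM. Nkg7, a membrane protein of cytotoxic granules, and Elane, neutrophil elastase, had equal means of 146 RPKM, with SDs of 52.0 and 241. Ctsc was at 55.8 ± 7.88 RPKM and Prss57, the arginine-specific neutrophil serine protease, was lowest at 32.7 ± 15.6 RPKM. Means 1 SD apart did not overlap between Ctsg and Prtn3, between Ms4a3 and Serpinb1a, or between Cst7 and Nkg7, and overlapped between the other neighbours in this order. With all exons of a gene as its length, Mpo and Ctsg both came to 2920 RPKM in wild-type clones.

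None of the 10 genes differed between wild-type and Taz-deficient clones beyond the spread between clones, and the estimate farthest from 0 was that of Elane. Mpo was measured in the wild-type clones, here and below in the order 1A to 2F, at 11029, 8716, 10049, 13282, 5863 and 11049 CPM. In the knockout clones, in the order 3G to 4L, it was at 11914, 11594, 6394, 11572, 5325 and 12068 CPM. The low clones were 2E, 3I and 4K, which lie in both genotypes, and the groups overlapped. The log2 fold change of Mpo, knockout minus wild type, was -0.03 (SE 0.24, 95% interval -0.56 to 0.51).

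Elane varied far more. Its wild-type levels, in the same clone order, were 372, 30.1, 57.4, 827, 23.4 and 74.4 CPM, and its knockout levels were 53.7, 50.0, 8.88, 73.7, 2.25 and 147 CPM. Clones 2D and 1A stood highest and 4K and 3I lowest, while the other 8 clones of both genotypes lay between 23.4 and 147 CPM. The lowest value rests on 48 reads, with an exact 95% Poisson interval of 1.66 to 2.98 CPM that covers counting error only. Clone 2D was 368-fold above 4K. The group means of 231 ± 321 and 56.0 ± 52.6 CPM (SD, n = 6 each) gave a log2 fold change of -2.04 (SE 1.04, 95% interval -4.37 to 0.28, adjusted p = 0.263 by edgeR), and the medians were 65.9 and 51.9 CPM. The estimate rests on 2 wild-type clones: it was -0.996 without 2D, and 0.28 (SE 0.85) without 1A and 2D, a setting added after the data were seen.

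Prtn3, which lies next to Elane on chromosome 10, was at 1688, 816, 959, 2425, 579 and 948 CPM in wild-type clones. Its knockout values were 765, 950, 349, 877, 297 and 1380 CPM. The same clones, 2D and 1A, were highest, and 4K and 3I were lowest. Its log2 fold change was -0.68 (SE 0.42, 95% interval -1.63 to 0.26).

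The third gene of that cluster, Prss57, gave 114, 81.8, 102, 134, 58.7 and 142 CPM in wild-type clones and 31.4, 70.9, 49.0, 119, 41.1 and 171 CPM in knockout clones. Its lowest clone was 3G and its highest 4L, both knockout. The log2 fold change was -0.39 (SE 0.39, 95% interval -1.27 to 0.49). Ctsg differed from the proteases on chromosome 10 in how little it varied, at 3111, 2900, 3089, 2890, 2647 and 3459 CPM in wild-type clones. In knockout clones it was at 3246, 3166, 2530, 3304, 2312 and 2947 CPM, with a log2 fold change of -0.05 (SE 0.09, 95% interval -0.26 to 0.16). Again 4K, 3I and 2E had its lowest values.

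Ms4a3 was at 1064, 737, 775, 764, 564 and 898 CPM in wild-type clones and at 716, 956, 382, 831, 511 and 921 CPM in knockout clones. The low clones were once more 3I, 4K and 2E, and its log2 fold change was -0.15 (SE 0.22, 95% interval -0.65 to 0.34).

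The activating protease and the inhibitors had the narrowest ranges together with Ctsg. Ctsc was at 163, 204, 185, 153, 191 and 192 CPM in wild-type clones and at 161, 157, 224, 170, 211 and 145 CPM in knockout clones. Here 3I and 4K, the clones lowest in Elane, were the 2 highest. Cst7, which encodes cystatin F, an inhibitor of cathepsin C, was at 247, 354, 387, 262, 370 and 314 CPM in wild-type and at 323, 268, 313, 339, 391 and 324 CPM in knockout clones. Its 2 lowest clones were 1A and 2D, the clones highest in Elane, and its highest was 4K. The log2 fold changes were -0.03 (SE 0.11, 95% interval -0.28 to 0.22) for Ctsc and 0.02 (SE 0.12, 95% interval -0.25 to 0.29) for Cst7.

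Serpinb1a, an inhibitor of elastase, proteinase 3 and cathepsin G, was at 1033, 759, 675, 871, 739 and 676 CPM in wild-type clones. Its knockout values were 631, 639, 674, 739, 641 and 821 CPM, and 1A and 2D were the highest clones. Its log2 fold change was -0.20 (SE 0.11, 95% interval -0.44 to 0.04). Serpinb1a has close paralogues, and how many of its reads were lost as aligned to more than 1 place was not measured; over whole libraries 42.8% to 44.9% of records were.

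Nkg7 was at 44.3, 68.2, 147, 130, 171 and 186 CPM in wild-type clones and at 135, 95.8, 105, 125, 199 and 142 CPM in knockout clones. Clones 1A and 1B were lowest and 4K was highest. Cst7 shared the lowest clone, 1A, and the highest, 4K, but its correlation with Nkg7 did not pass (r = 0.583, rho = 0.594, n = 12, adjusted permutation p = 0.0817 and 0.119). The log2 fold change was 0.10 (SE 0.32, 95% interval -0.61 to 0.82).

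**Figure D1:**
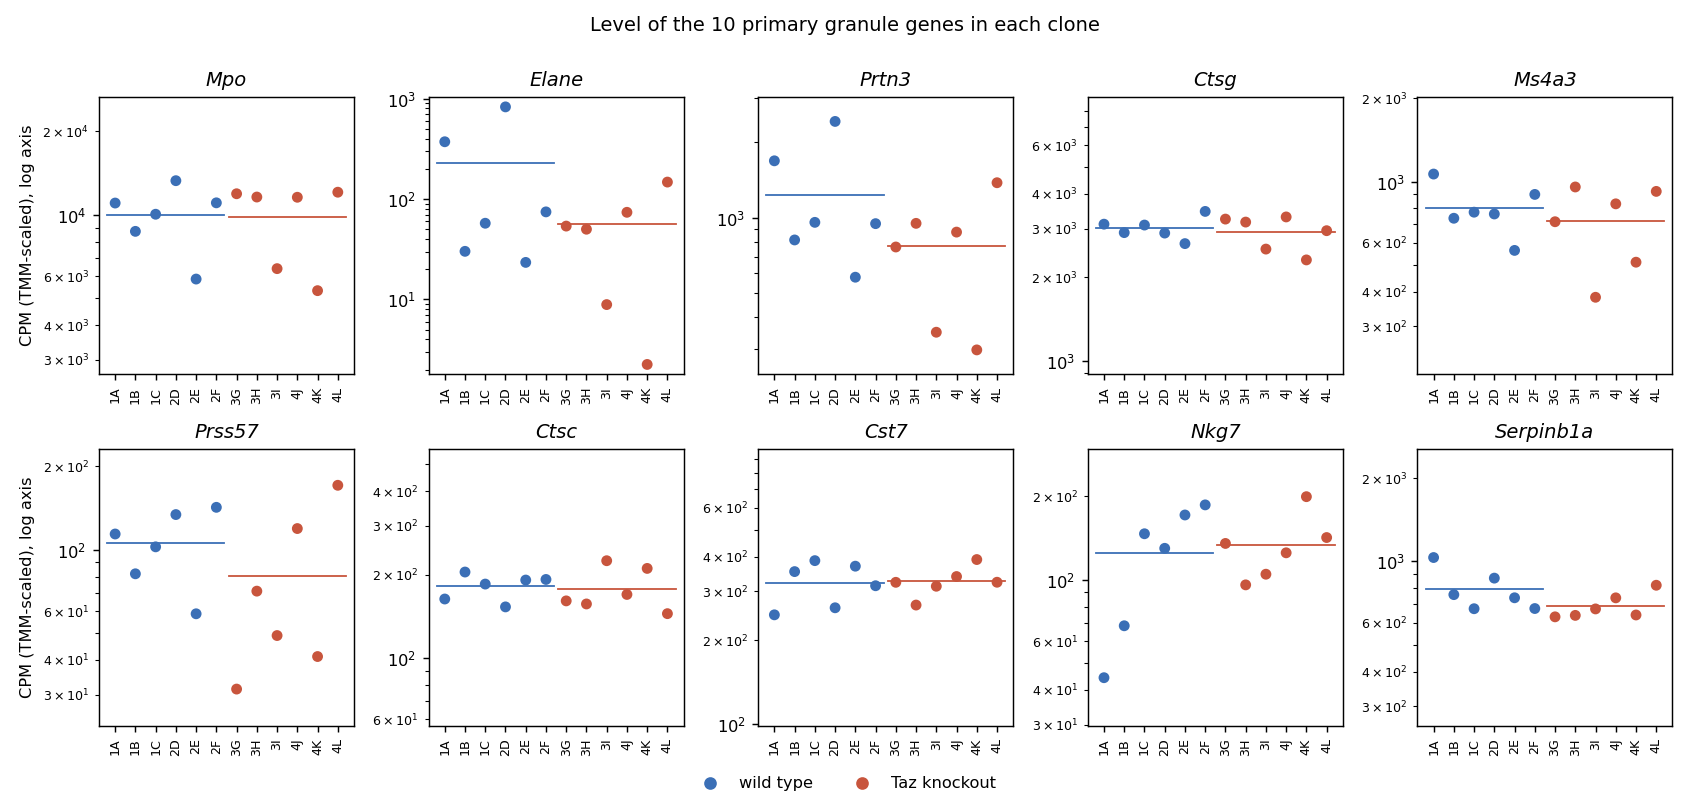
TMM-scaled CPM of each of the 10 genes (vertical axis, logarithmic, spanning at least a factor of 10 in every panel) in the 12 clones (horizontal axis), with wild type in blue, Taz knockout in red and lines at the mean of each genotype. Elane spans 2.25 to 827 CPM, whereas Ctsg stays between 2312 and 3459 CPM, and the genotypes overlap in every panel.

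Over the 10 genes, 0 were called between genotypes at an adjusted p under 0.05 by the quasi-likelihood test of edgeR, against 7.94% of all genes tested (938 of 11819; 3.99% higher and 3.94% lower in knockout clones). The smallest adjusted p was 0.263, for Elane, and 0 of the 10 had an unadjusted p under 0.05, which 23.7% of all genes had. DESeq2 also called 0 of the 10 (smallest adjusted p = 0.165), against 14.0% of the genes it tested. None of the 10 separated the genotypes without overlap, which 5.38% of all genes did. The estimates were below 0 for 8 genes and above 0 for 2, while 6106 of all 11819 genes were below 0. Several of the 10 genes rise and fall together over clones, so their signs are not independent. The median log2 fold change was -0.10 against -0.01 over all genes tested. The intervals differ in what they leave possible: for Ctsg, Ctsc and Cst7 they stay within 0.29 of 0 on the log2 scale, whereas for Elane the interval reaches -4.37. In bulk RNA, fewer cells that express a gene and less RNA per cell cannot be told apart.

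**Figure D2:**
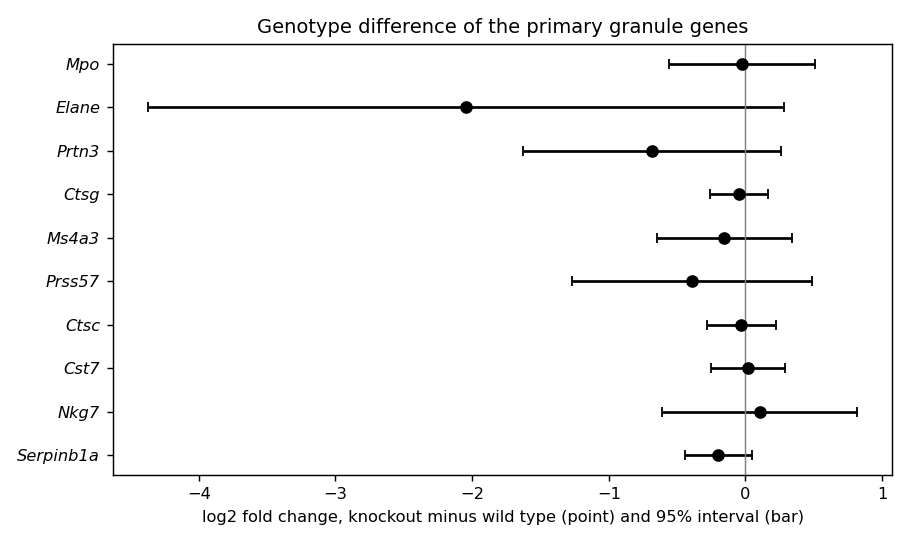
Log2 fold change, knockout minus wild type, of each gene (points) with its 95% interval from the edgeR fit (bars, 10 residual degrees of freedom). Every interval contains 0, and that of Elane (-4.37 to 0.28) is the widest.

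The numbers in the clone names were then contrasted inside a genotype, 3 clones against 3, in 1 model with 4 groups. The edgeR test called 0 of the 10 genes in wild type and 0 in knockout, as it called 0 of all genes in each (0.00%). At an unadjusted p under 0.05 edgeR found 1 of the 10 in each genotype, against 3.52% (416 genes) and 2.06% (244 genes) of all genes. In wild type it was Nkg7, with a log2 difference of 0.91 (SE 0.38) between numbers 2 and 1. In knockout it was Prss57, with 1.13 (SE 0.51) between numbers 4 and 3. Over all genes, DESeq2 called 5 (0.0432%) in wild type and 5 (0.0424%) in knockout after adjustment. Setting each knockout number against each wild-type number, 4 comparisons that share clones, called 0 of the 10 in all 4, against 1.57%, 0.719%, 0.508% and 0.262% of all genes. At an unadjusted p under 0.05 edgeR found 2 results over these 4 comparisons. They were Prss57 in number 3 against 2 (log2 difference -1.15, SE 0.51) and Nkg7 in number 4 against 1 (0.85, SE 0.38). The share of all genes at that level was not counted here.

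The 10 genes spread more between clones than the median gene did. The SD of log2 CPM within genotype had a median of 0.452 over the 10 genes and of 0.150 over all genes tested. All 10 lay above the median gene, and 3 lay at or above the 90th percentile: Elane (2.14), Prtn3 (0.812) and Prss57 (0.745), the neighbours on chromosome 10. The fold from lowest to highest clone was 8.16 for Prtn3, 5.44 for Prss57, 4.50 for Nkg7, 2.78 for Ms4a3 and 2.49 for Mpo. It was 1.64 for Serpinb1a, 1.58 for Cst7, 1.55 for Ctsc and 1.5 for Ctsg, so the 2 most abundant products per length, Mpo and Ctsg, differed in how far clones diverged.

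**Figure D3:**
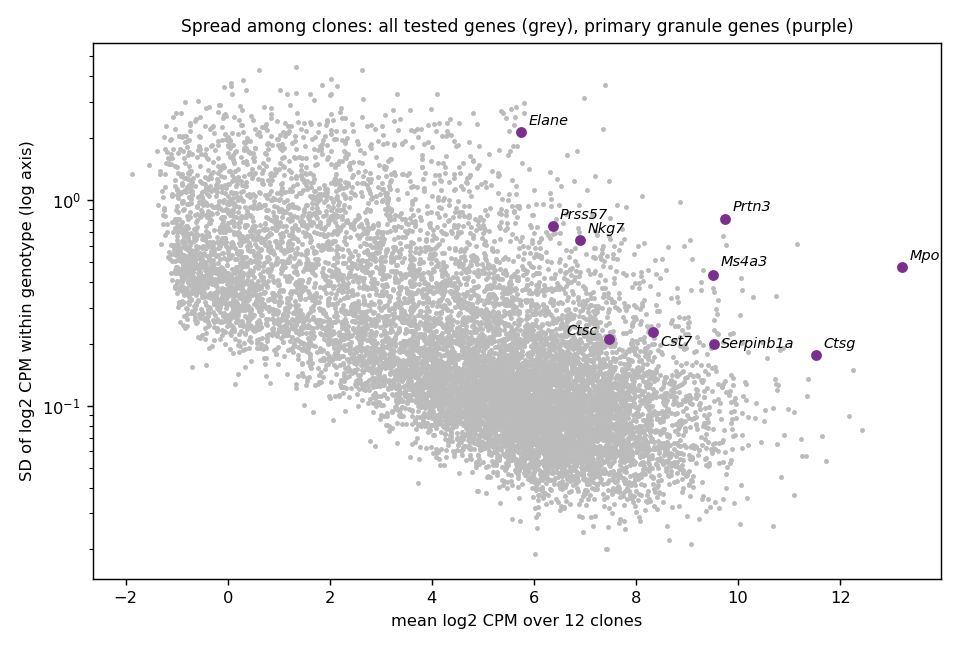
SD of log2 CPM within genotype (vertical axis, logarithmic) against mean log2 CPM over 12 clones (horizontal axis) for the 11819 genes tested (grey) and the 10 granule genes (purple). Elane, at an SD of 2.14, stands near the top of the cloud, and Ctsg lies just above the middle of all genes in spread.

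Clones ordered most of the stored enzymes alike. Each of 2E, 3I and 4K was among the 3 lowest clones for Mpo, Elane, Prtn3, Ctsg and Ms4a3; 1 of them is wild type and 2 are knockout. Of the 45 pairs of genes, 17 had a correlation of log2 CPM over the 12 clones that passed a permutation test of Pearson's r (100000 resamples, adjusted over the 45), 12 positive and 5 negative. Spearman's rho passed as well in 7 of these. The share of pairs that would pass among all genes was not counted. All 17 kept their sign within both genotypes and without the 2 clones farthest from the median of the first gene. Within a genotype, exact permutation tests over 6 clones passed adjustment for 0 pairs. With 6 clones the smallest p such a test can give is too large for 1 pair alone to pass adjustment over 45. These tests therefore decide little. With 3 clones a title number is too small to be looked at alone.

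Elane and Prtn3 ran closest together, with r = 0.980 and rho = 0.909 (n = 12, adjusted permutation p = 0.00045 and 0.00585). The r was 0.961 without 2D and 4K, 0.985 in wild-type and 0.969 in knockout clones. Elane rose 368-fold over a range in which Prtn3 rose 8.16-fold. Elane and Mpo gave r = 0.845 and rho = 0.762 (adjusted permutation p = 0.00315 and 0.0436), and r = 0.743 without 2D and 4K. Mpo and Ctsg gave r = 0.840 with rho = 0.531 (adjusted permutation p = 0.0125 and 0.161), so their relation held for r but not by rank. Among Mpo, Elane, Prtn3, Ctsg, Ms4a3 and Prss57, 10 of 15 pairs passed, and r ran from 0.47 to 0.98. Of these genes, Ctsg passed only with Mpo and Ms4a3. Without 3I and 4K its r went from 0.614 to 0.0008 with Prtn3, from 0.472 to 0.091 with Prss57 and from 0.791 to 0.582 with Ms4a3. Within wild type the r of Ctsg was 0.207 with Elane and 0.218 with Prtn3, and from 0.621 to 0.789 with Mpo, Ms4a3 and Prss57. With genotype means removed, Elane with Prss57 and Prtn3 with Prss57 no longer passed (adjusted permutation p = 0.0718 and 0.0509).

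Ctsc went the other way against 4 of the genes. Against Mpo it gave r = -0.814 and rho = -0.881 (adjusted permutation p = 0.00945 and 0.00765), and r = -0.890 without 2E and 4K. Against Prtn3 its r was -0.792 and its rho -0.748 (adjusted permutation p = 0.0125 and 0.0460). Against Elane it gave r = -0.774 and rho = -0.713 (adjusted permutation p = 0.0125 and 0.0632), and against Ms4a3 r = -0.741 and rho = -0.629 (0.0182 and 0.104). Against the other proteases it activates it did not pass: r was -0.541 and rho -0.378 for Ctsg (adjusted permutation p = 0.111 and 0.344), with r = -0.075 without 3I and 4K and 0.015 within wild type, and r was -0.442 and rho -0.448 for Prss57 (0.209 and 0.255). The change of Ctsc over the clones was small, 1.55-fold at most. Cst7 also fell as Elane rose, with r = -0.685 and rho = -0.552 (adjusted permutation p = 0.0354 and 0.153), but r was -0.473 without 2D and 4K. Serpinb1a rose with Elane (r = 0.701, rho = 0.622, adjusted permutation p = 0.0354 and 0.105), but neither this pair nor Prtn3 with Serpinb1a passed once the genotype means were removed (adjusted permutation p = 0.0718 and 0.0787). Nkg7 passed with no other gene of the 10.

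**Figure D4:**
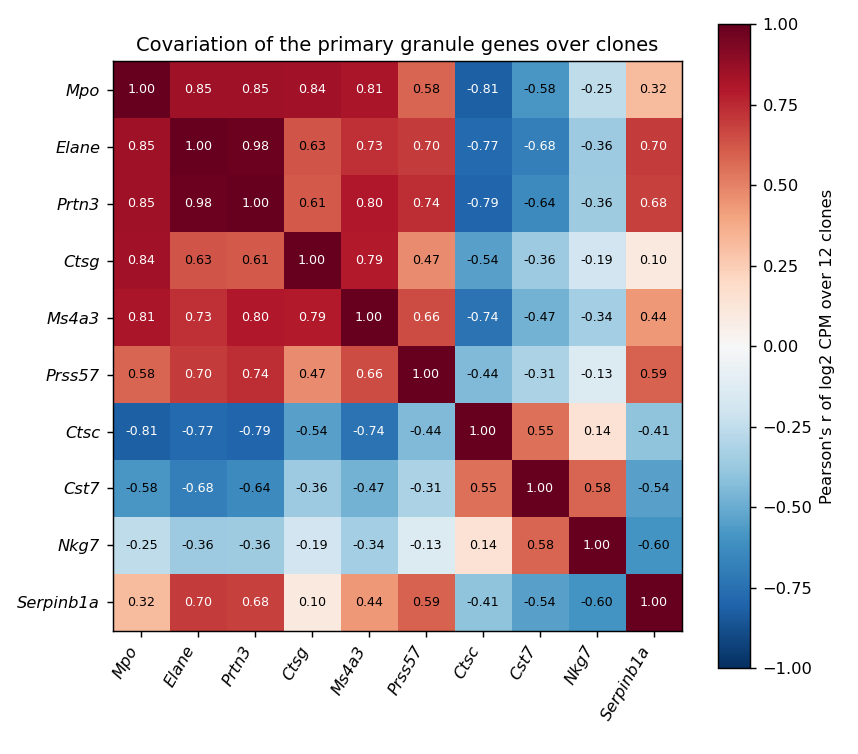
Pearson's r of log2 CPM over 12 clones for every pair of the 10 genes, from -1 (blue) to 1 (red). Mpo, Elane, Prtn3, Ctsg, Ms4a3 and Prss57 lie between 0.47 and 0.98 with each other, and 10 of these 15 pairs passed adjustment. Ctsc, Cst7 and Nkg7 are negative against all 6, but only 5 of these negative pairs passed, none of them with Nkg7.

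Transcription factors of blood progenitors, those that control granule genes among them, were set against Elane in the same way. This family of 14 was added after the data were seen. Gata2 is also on the list of mast cell and basophil genes used below. How many of all genes would pass the same test was not counted, so a pass cannot be called particular to these factors. Spi1, which encodes PU.1, followed Elane with r = 0.941 and rho = 0.881 (n = 12, adjusted permutation p = 0.00028 and 0.0014). It was at 185, 142, 133, 190, 119 and 146 CPM in wild-type and at 141, 152, 114, 151, 112 and 162 CPM in knockout clones, so 2D and 1A were highest and 4K, 3I and 2E lowest. Cebpe, the C/EBP factor of late granulopoiesis, gave r = 0.925 and rho = 0.930 (adjusted permutation p = 0.00028 and 0.00098), from 3.00 CPM in 4K to 87.5 CPM in 2D. Gfi1, a repressor needed for neutrophil fate, gave r = 0.738 and rho = 0.776 (adjusted permutation p = 0.0137 and 0.0115), and Cebpb gave r = 0.725 and rho = 0.671 (0.0137 and 0.0406). With genotype means removed, Spi1 (0.945) and Cebpe (0.912) exceeded an r of 0.9 with Elane. An absolute r of 0.9 was reached by 259 of 9505 genes (2.72%).

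Of the factors that passed, 3 were higher where Elane was lower. These were Cbfb, the partner of RUNX proteins (r = -0.869, rho = -0.832, adjusted permutation p = 0.00219 and 0.00635), Gata2 (r = -0.808, rho = -0.671, adjusted permutation p = 0.00409 and 0.0406) and Myb (r = -0.792, rho = -0.790, adjusted permutation p = 0.00409 and 0.0115). Without 2D and 4K the r of these 7 factors kept its sign, from 0.548 (Cebpb) to 0.932 (Spi1) and from -0.680 (Myb) to -0.733 (Cbfb). Cebpa, which starts the granulocyte program, did not pass (r = -0.224, rho = -0.063, adjusted permutation p = 0.521 and 0.915), nor did Cebpd (r = 0.590), Runx1 (0.371), Gata1 (0.332), Irf8 (0.296), Ets1 (0.161) and Meis1 (-0.560), whose adjusted permutation p of r ran from 0.0738 to 0.620. The 7 factors that passed kept their sign within both genotypes. The sign differed for Cebpa (r = -0.723 in wild-type and 0.693 in knockout clones), Runx1 (-0.434 and 0.835), Irf8 (-0.713 and 0.412) and Gata1 (-0.043 and 0.586). None of the values for Cebpa, Runx1, Irf8 and Gata1 within a genotype passed adjustment. Within wild type, Spi1, Gfi1, Cebpb and Cbfb passed (adjusted exact permutation p = 0.034 each). Cebpd passed there as well (r = 0.880, adjusted exact permutation p = 0.0389), but not within knockout (r = 0.758, 0.126). Within knockout, Cebpe, Spi1, Gfi1 and Myb passed (adjusted exact permutation p = 0.0389 each). Of the 14 factors, edgeR called 0 between genotypes, with 1 at an unadjusted p under 0.05, and DESeq2 called 0. Hoxa9 had 0 counts in every clone.

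**Figure D5:**
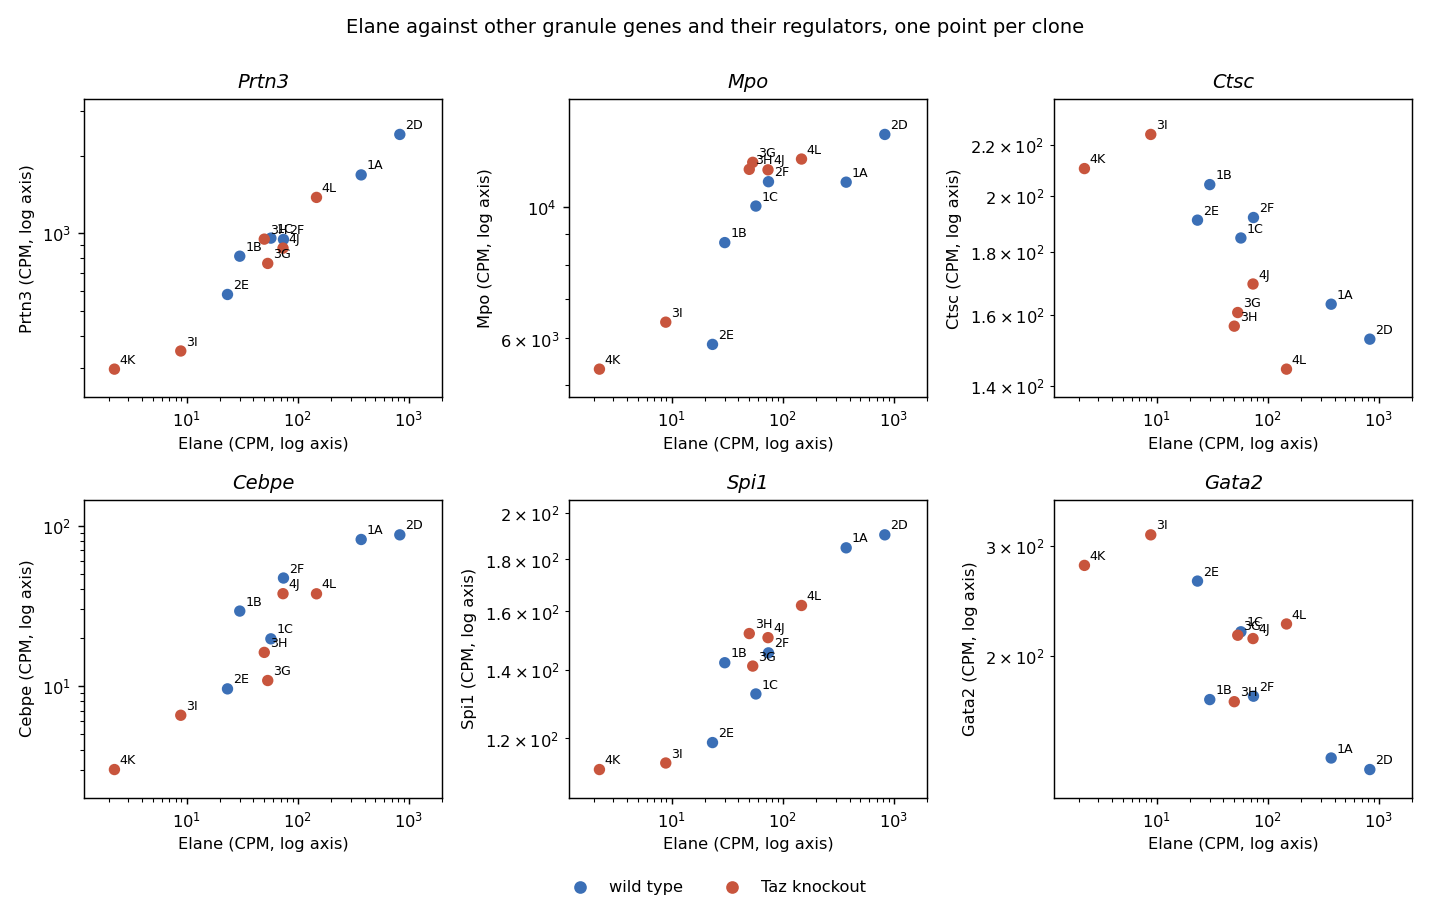
CPM of Prtn3, Mpo, Ctsc, Cebpe, Spi1 and Gata2 (vertical axes, logarithmic) against CPM of Elane (horizontal axes, logarithmic), 1 point per clone, wild type in blue and Taz knockout in red. Prtn3, Mpo, Cebpe and Spi1 are higher and Ctsc and Gata2 lower in clones with more Elane, from 2.25 CPM in 4K to 827 CPM in 2D.

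The genes most like 3 of the 10 were found by Pearson's r of log2 CPM after removing genotype means, over 12 clones and the 9505 genes whose mean log2 CPM reached 2, as a description. For Elane they were Nucb2, Tmx4, Tbl2, Slc8b1, Tnfaip2 and Tmbim6, with r from 0.974 to 0.983. For Mpo they were Mtus1, Igsf6, Sirpa, Tnfrsf1a, Rtn3 and Clec12a (r from 0.961 to 0.979), among which Sirpa and Clec12a encode inhibitory receptors of myeloid cells. For Ctsg they were Stt3a, Rpl27a, Btg1, P4hb, Sft2d3 and Stom (r from 0.888 to 0.916). Elane had 259 genes at an absolute r of 0.9 or more (2.72%), Mpo 80 (0.842%) and Ctsg 5 (0.0526%), so Elane lay on a pattern that many genes shared and Ctsg did not.

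Elane, Prtn3 and Prss57 lie in a row on chromosome 10, with Palm, Ptbp1 and Plppr3 between Prss57 and Prtn3 in GENCODE order. Their neighbours spread less: 13 neighbours tested, 5 on each side of the cluster and those within it, had a median SD of 0.153. The largest fold between clones was 3.86, for Hcn2, which lay at only 0.408 to 1.57 CPM. Arid3a followed at 3.57-fold, from 67.1 to 240 CPM, with an SD of 0.548 that exceeded the 0.473 of Mpo. The genotype-centred r with Elane reached 0.6 in 4 of the 13 neighbours, Wdr18 (0.85), Arid3a (0.81), Rnf126 (0.79) and Plppr3 (0.67), and was lowest for Bsg (-0.50). The share of all genes that reach 0.6 was not counted. Palm, which encodes paralemmin, was the 1 of 13 neighbours called between genotypes, near the 7.94% called over all genes, with a log2 fold change of -0.60 (SE 0.17, adjusted p = 0.0499 by edgeR). That call held without 4L and was lost without any other single clone (adjusted p = 0.0103 without 4L and up to 0.103 otherwise, by edgeR).

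Genes of granule building were taken from lists fixed by name, chosen with earlier results of these data known. Of 23 genes of granule packaging and transport, 2 were higher and 1 lower in knockout clones by edgeR, which called 3.99% of all genes tested higher and 3.94% lower, so counts of 1 in lists of this size lie near that background. Unc13d, which primes granules for release, rose from 112 ± 6.75 to 134 ± 3.81 CPM (SD, n = 6 each; log2 fold change 0.25, SE 0.04, adjusted p = 0.00381 by edgeR) with no overlap between genotypes. Vps13b rose by 0.19 (SE 0.05, adjusted p = 0.0432) and Ap3d1, a subunit of the AP-3 adaptor that sorts cargo to lysosome-related granules, fell by 0.12 (SE 0.03, adjusted p = 0.0281), both log2 by edgeR. Of 19 lysosomal hydrolases 1 was lower: Ctsz, an exopeptidase, went from 189 ± 20.1 to 117 ± 25.2 CPM (log2 fold change -0.69, SE 0.15, adjusted p = 0.0147 by edgeR). Of 7 other papain-family cathepsins and cystatins 1 was higher: Ctsl, the endopeptidase cathepsin L, went from 24.6 ± 4.61 to 46.8 ± 8.95 CPM (log2 fold change 0.93, SE 0.15, adjusted p = 0.00459 by edgeR). Of 9 other protease inhibitors 1 was higher, Serpinb6a, at 0.29 (SE 0.07, adjusted p = 0.0365 by edgeR) on the log2 scale. Of 8 genes of heme synthesis, which supply the cofactor of Mpo, and of 7 other granule serine proteases 0 were called. With each clone left out in turn, Unc13d, Ctsz and Ctsl stayed called in all 12 fits (largest adjusted p = 0.0348 by edgeR). Ap3d1 lost its call without 1B, 3G, 3H, 4K or 4L (adjusted p up to 0.0708), Vps13b in all but the fits without 1C, 2D or 4J (up to 0.0919), and Serpinb6a in all but those without 1C or 4L (up to 0.0771). With counts summed by clone number, 2 against 2, all 6 lost their calls (adjusted p from 0.0535 to 0.198 by edgeR).

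The genotype-centred r of each list's tested genes with Elane is given as a median, as a description, beside 0.01 over all genes tested. The median was 0.52 for heme synthesis (5 positive, 3 negative), -0.69 for lysosomal hydrolases (4 positive, 15 negative) and -0.55 for cathepsins and cystatins (2 positive, 5 negative). It was -0.38 for other serine proteases (1 positive, 6 negative), -0.03 for packaging genes (11 positive, 12 negative) and -0.04 for the other protease inhibitors (4 positive, 5 negative).

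Markers of other stages and lineages were set against Elane in the same way. Of 11 tested genes of secondary granules and mature neutrophils, 11 had a positive r with Elane (median 0.76). Their summed level was 101 to 1918 CPM in wild-type clones, highest in 2D, and 142 to 334 CPM in knockout clones. In 2D S100a9 was at 486 CPM and Ltf at 138 CPM, against at most 21.7 and 6.47 CPM in any other clone. One of the 11 was called, Cxcr2, which fell by 1.64 on the log2 scale (SE 0.44, adjusted p = 0.0411 by edgeR), a call lost in all single-clone omissions but those of 2E and 4L (adjusted p up to 0.0872). Of 8 mast cell and basophil genes, 8 had a negative r with Elane (median -0.49), and their sum was 1649 to 4979 CPM in wild-type and 2825 to 5642 CPM in knockout clones, with 0 called and none at 0 in all clones. The median r was 0.08 for 8 monocyte and macrophage genes (4 positive, 4 negative), 0.71 for 4 eosinophil genes (3 positive, 1 negative), 0.25 for 6 erythroid genes (4 positive, 2 negative) and -0.43 for 9 progenitor surface genes (4 positive, 5 negative). The 2 hepatocyte genes (median -0.37) and the 2 cytotoxic lymphocyte genes (-0.63) were negative. The part of these cell types in the levels of the granule genes was not tested.

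The remaining marker lists gave 0 calls by edgeR between genotypes: 8 monocyte and macrophage genes (summed level 827 to 2304 CPM in wild-type and 1148 to 1991 CPM in knockout clones), 4 eosinophil genes, 6 erythroid genes, 2 hepatocyte genes and 9 progenitor surface genes. DESeq2 called 2 of the 6 erythroid and 1 of the 9 progenitor surface genes. Over all genes, edgeR called 7.94% and DESeq2 14.0%. The summed level of the hepatocyte list was 186 CPM in 3G and at most 24.1 CPM in any other clone. Nkg7 is also a gene of cytotoxic lymphocytes, and of that list Ncr1, Cd3e and Cd8a had 0 counts in every clone. The summed level of the list was 0.520 CPM in 2D, 9.32 CPM in 4K and 9.39 CPM in 3I, its lowest and 2 highest clones. Nkg7 was at 130, 199 and 105 CPM in these clones, and its lowest value was 44.3 CPM. Whether such cells are a source of Nkg7 RNA was not tested. Of 8 housekeeping genes 1 was called, and of 11 genes of the ATF4 and CHOP stress response 11 were higher in knockout clones.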

How the data were processed

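The authors deposited raw read counts per Ensembl gene, 1 file per clone, counted without regard to strand as the names of the deposited files state. The submitters' processing notes name the tools STAR, HTSeq and edgeR and the build mm9; versions and the annotation release are not given in the sources used here. The 5 total lines of each file (no feature 3.06% to 3.93%, ambiguous 1.53% to 1.65% of records) were left out. Symbols, lengths and gene order came from GENCODE M21 and a gene name table (32860 identifiers matched), and promoters from RefSeq (GRCm38.p6). The test was edgeR 4.0.16 (R 4.3.3; TMM, filterByExpr, quasi-likelihood), with Benjamini-Hochberg adjustment over all genes and a threshold of 0.05; DESeq2 1.42.0 and limma 3.58.1 gave alternatives. Correlations used log2 CPM with a prior count of 2. The scripts were tested on simulated data. None of the 30 pairs of libraries within a genotype agreed within sampling noise (at least 15.1 in chi-square per gene). Named genes are the 10, Taz, genes called among the 4 of smallest adjusted p in each of 17 lists, regulators, the 6 most alike, and chromosomal neighbours. Kit, Cd34, S100a9 and Ltf were added after their values were seen. Fcgr3 was named beside Kit and Cd34 as a marker of these progenitors, outside these rules. Ncr1, Cd3e and Cd8a were named for their 0 counts. Members and lists were chosen with earlier results of these data known.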

Additional observations from a re-analysis of the deposited data

How the results depend on the processing

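Of 180 refits of the 10 genes under 18 alternatives, 0 passed the threshold (smallest adjusted p = 0.0811 by edgeR, Prtn3 with counts summed by title number). The sign turned in 19, all of them near 0 save Elane. Leaving out 1 clone gave a range of -0.15 to 0.10 for Mpo, -2.61 to -0.996 for Elane, -0.089 to 0.013 for Ctsg, -0.11 to 0.029 for Ctsc, -0.050 to 0.080 for Cst7 and -0.072 to 0.26 for Nkg7. Without 1A and 2D together, a setting added after the data were seen, Mpo was at 0.14, Elane at 0.28, Cst7 at -0.12 and Nkg7 at -0.093. The number of genes called between genotypes was 1615 by DESeq2, 551 without a filter on low counts, 274 with counts summed by title number, 2296 by limma voom with the title number as a block (correlation -0.169), and 570 to 1031 when 1 clone was left out. Of the correlations, 13 of 45 passed with genotype means removed and 17 with a prior count of 0.5. No paired analysis was possible because the replicate numbers of the clones only follow the order of deposit. Depth did not limit the 10 genes, whose lowest count was 48. The meaning of the title number, and so the independence of clones, cannot be told from the labels.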
